A study of Mus musculus with 15 samples.

Results

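The genes described here are 33 cell cycle and proliferation genes, picked by gene symbol from a list of DNA replication and mitosis genes. Values in these libraries were not the rule of choice, but earlier results of these data were known. The genes are 33 of the 38924 in the deposited tables. RNA-seq was performed on CD11b+ brain myeloid cells separated by FACS into CD45hi and CD45lo cells, from male wild type C57BL/6J mice of 12 months of age. Mice were fed a control chow diet (CD) or a western diet (WD) that was started in young adults. There were 4 libraries of CD45hi and 4 of CD45lo cells from CD-fed mice, and 3 of CD45hi and 4 of CD45lo cells from WD-fed mice. The sort took live CD3e- cells. CD45lo cells are regarded as microglia, the resident macrophages of the brain. CD45hi cells are a mixture that, the authors propose, includes activated microglia and dendritic cells besides monocytes, macrophages and neutrophils from the blood. The deposited counts are described as those of single animals, but the labels do not say which libraries came from the same mouse.

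The cell cycle runs from growth (G1) through DNA replication (S) to mitosis (M). Genes of S phase make nucleotides (Rrm2, Tyms and Tk1), load and drive the helicase that opens DNA (Mcm2 to Mcm7) and hold the polymerase on its template (Pcna). Mitotic genes encode the cyclins and kinase that start division (Ccna2, Ccnb1, Ccnb2 and Cdk1, with Ccne1 acting earlier at the entry into S phase), the kinases and checkpoint proteins that time it (Aurka, Aurkb, Plk1, Birc5, Bub1, Bub1b and Cdc20), the kinetochore, spindle and cytokinesis proteins that move and part the chromosomes (Cenpe, Cenpf, Ndc80, Kif11, Kif20a, Kif23, Nusap1, Tpx2 and Prc1), and Top2a and Mki67, which untangle and coat them. Ki-67, the product of Mki67, is the common stain for dividing cells. Adult microglia divide slowly, whereas neutrophils and monocytes are made from dividing precursors in the bone marrow. Several S phase genes, Pcna among them, also serve DNA repair and are found in cells that do not divide.

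Values are given as cpm, the share of a library's counts that a gene holds after TMM normalization, computed from expected counts. Libraries held 11951412 to 17912272 expected counts in all. A floor of 3 counts, which covers counting error only, came to 0.156 to 0.282 cpm. All 33 genes passed the filter of 1 cpm in at least 2 libraries and were tested among 14967 genes. More than 3 counts were found for 27 to 32 of the 33 genes in CD CD45hi libraries, 25 to 32 in CD CD45lo, 24 to 26 in WD CD45hi and 25 to 31 in WD CD45lo libraries. The summed cpm of 9 microglia markers was 16400 to 20600 in CD45lo and 7660 to 9530 in CD45hi libraries, with the opposite order for classical monocyte markers (16.8 to 111 against 502 to 1000). CD CD45hi library 4 and WD CD45hi library 1 stood apart from all other libraries on the second principal component of all genes tested (93 and -134.7, against -4.5 to 21.5 for the other 13), so that results were also computed without this pair.

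Together, the mitotic genes were at higher levels in CD45hi than in CD45lo cells on both diets, by a wider margin than the S phase genes. The summed level of the 23 cyclin and mitotic genes was 391, 502, 331 and 367 cpm in CD CD45hi libraries 1 to 4 and 378, 282 and 299 cpm in WD CD45hi libraries 1 to 3. It was 51.4, 144, 24.6 and 83.2 cpm in CD CD45lo libraries and 78.3, 71.8, 33.8 and 55.9 cpm in WD CD45lo libraries. Every CD45hi library was above every CD45lo library. Mki67 made up 30.1 to 52.8% of this sum in CD45hi libraries, and the other 22 genes summed to 141 to 271 cpm in CD45hi and 22 to 105 cpm in CD45lo libraries, again without overlap. The summed level of the 10 S phase genes was 244 to 314 cpm in CD CD45hi, 253 to 451 cpm in WD CD45hi, 220 to 265 cpm in CD CD45lo and 219 to 233 cpm in WD CD45lo libraries. CD45hi and CD45lo libraries of CD-fed mice overlapped in this sum. Those of WD-fed mice did not, and the highest WD CD45hi value came from library 3, where Pcna alone was at 297 cpm. Pcna was a large part of this sum, at 80.6 to 118 cpm in CD CD45hi and 108 to 137 cpm in CD CD45lo libraries. With Pcna taken off the sum, every CD45hi library was above every CD45lo library within each diet. In these sorted mixtures, fewer cells of a type and less RNA per cell cannot be told apart.

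**Figure D1:**
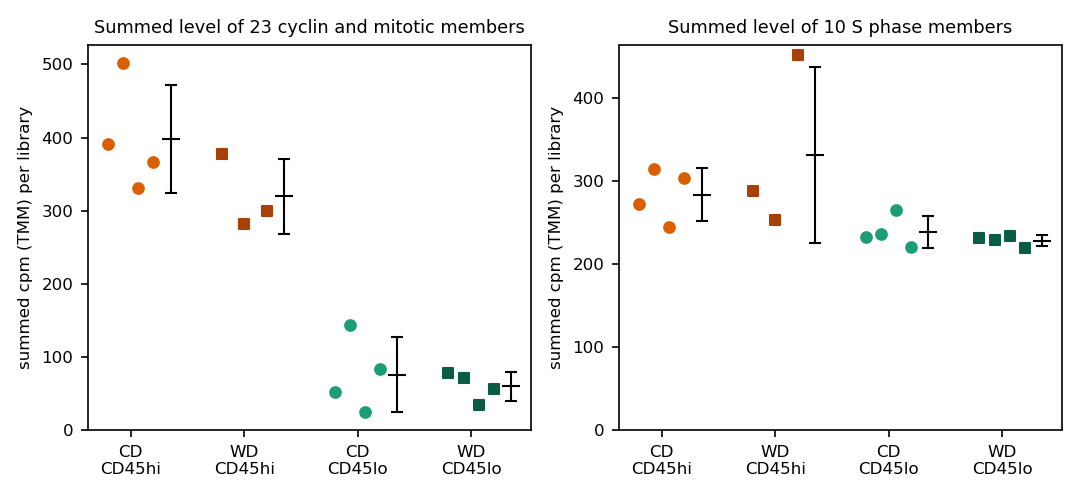
Summed cpm of the 23 cyclin and mitotic genes (left) and of the 10 S phase genes (right) in each library, by diet and cell type. Points are libraries and black bars are the mean and SD. The mitotic sum is at 282 to 502 cpm in CD45hi and 24.6 to 144 cpm in CD45lo libraries, whereas the S phase sum lies at 219 to 265 cpm in CD45lo and 244 to 451 cpm in CD45hi libraries.

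Both classes of genes were also set side by side by their promoters, a property that the list did not use. Promoters of many mitotic genes carry the cell cycle homology region (CHR), bound by the DREAM and MuvB complexes, often near CCAAT boxes bound by NF-Y, whereas S phase genes often carry E2F sites. RefSeq promoters (build GRCm38.p6, 250 bases before to 50 after the start) matched 28 of the 33 genes by symbol. Ccna2, Aurkb, Kif20a, Tpx2 and Mcm4 had no match. On either strand, TTTGAA or TTCGAA (CHR) was found in 14 of 19 mitotic promoters and 2 of 9 S phase promoters, against 21.7% of the 27025 genes with a promoter. CCAAT was found in 15 of 19 mitotic and 7 of 9 S phase promoters, against 41.1% of all. One of the E2F words TTTCCCGC, TTTGGCGC, TTTCGCGC and TTTGCCGC was found in 1 of 19 mitotic (Cdk1) and 4 of 9 S phase promoters (Mcm3, Mcm5, Mcm6 and Mcm7), against 2.6% of all. A match to these letters is a description and not a bound site. The 100 bases before the start are shown for 3 mitotic genes and 1 helicase gene that differed between the cell types in at least 1 of the tests below (Mki67, Kif23, Ccnb2 and Mcm6), and for Top2a, whose stretch holds both CHR and CCAAT matches. Capitals mark the matches, none of which shares a base with another:
Mki67, chr7:135716380-135716479, minus strand: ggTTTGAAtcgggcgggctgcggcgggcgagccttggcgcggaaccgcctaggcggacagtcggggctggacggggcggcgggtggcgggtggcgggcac
Top2a, chr11:99024190-99024289, minus strand: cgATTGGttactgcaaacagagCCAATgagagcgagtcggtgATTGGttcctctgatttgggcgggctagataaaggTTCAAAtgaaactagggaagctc
Ccnb2, chr9:70421555-70421654, minus strand: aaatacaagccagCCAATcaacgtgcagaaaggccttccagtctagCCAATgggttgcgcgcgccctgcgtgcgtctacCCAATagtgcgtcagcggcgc
Kif23, chr9:61946800-61946899, minus strand: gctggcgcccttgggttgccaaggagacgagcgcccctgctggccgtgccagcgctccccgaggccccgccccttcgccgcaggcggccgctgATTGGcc
Mcm6, chr1:128359706-128359805, minus strand: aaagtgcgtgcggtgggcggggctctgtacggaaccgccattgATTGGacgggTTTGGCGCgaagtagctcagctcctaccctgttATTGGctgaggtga
Within these 100 bases, Mki67 had a CHR match near the far end, and Top2a had 3 CCAAT boxes followed by a CHR match. Ccnb2 had 3 CCAAT boxes, Kif23 had 1, and Mcm6 had an E2F word between 2 CCAAT boxes. Further matches lay in the rest of the 300 bases searched. Over all 300 bases, CHR and CCAAT matches numbered 2 and 3 for Mki67, 4 and 6 for Top2a, 2 and 3 for Ccnb2, and 1 and 1 for Kif23. Mcm6 had 3 matches to E2F words and 2 to CCAAT there.

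Mki67, on chromosome 7 (mm10, 135689784 to 135716361, minus strand), gave the clearest difference between the cell types. Its level was 195, 232, 154 and 141 cpm in CD CD45hi libraries and 11.8, 39.2, 1.29 and 28.5 cpm in CD CD45lo libraries. In WD-fed mice it was 190, 85.1 and 158 cpm in CD45hi and 25.4, 17.7, 11.8 and 21.1 cpm in CD45lo libraries. All CD45hi libraries were above all CD45lo libraries, and the lowest CD45hi value was above the highest CD45lo value within each diet and across them. The mean was 180.5 ± 41.2 (SD, n = 4) against 20.2 ± 16.9 cpm (n = 4) in CD-fed mice, which was 8.92-fold higher (log2 fold change 3.16, SE 0.625, edgeR glmTreat for a difference over 1.5-fold, FDR = 0.00846). In WD-fed mice it was 144.3 ± 53.8 (n = 3) against 19.0 ± 5.74 cpm (n = 4), which was 7.6-fold higher (log2 fold change 2.93, SE 0.643, FDR = 0.0166). Without WD CD45lo library 3, the WD difference was no longer past the 1.5-fold test (log2 fold change 2.75, FDR = 0.0602). Mki67 overlaps the predicted gene Gm45240 on the other strand, and the sources used here do not say whether counting used the strand.

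Of the 33 genes, 3 were higher by over 1.5-fold in CD45hi cells of WD-fed mice (Mki67, Kif23 and Cenpe) and 1 in CD-fed mice (Mki67). None was lower in these tests, and Bub1 was the 1 gene with a negative fold change at an unadjusted p under 0.05, in WD-fed mice, where DESeq2 called it lower. Among all genes tested, 4.01% were higher by over 1.5-fold in WD-fed and 3.39% in CD-fed mice, and 1.17% and 0.588% were lower. With the test for any difference (edgeR glmQLFTest), 6 genes were higher in WD-fed mice (Mki67, Kif23, Cenpe, Cenpf, Ndc80 and Mcm5) and 4 in CD-fed mice (Mki67, Kif23, Ccnb2 and Mcm6), against 6.22% and 5.95% of all genes. None of the 33 was lower in this test, against 2.9% and 2.08% of all genes. The log2 fold change was above 0 for 25 of the 33 genes in WD-fed mice (median 1.12, all genes 0) and for 29 of 33 in CD-fed mice (median 1.57, all genes 0.0357). Libraries of the cell types did not overlap, with CD45hi higher, for 8 genes in WD-fed and 7 in CD-fed mice. Of all genes tested this held for 10% in WD-fed and 8.26% in CD-fed mice. The reverse order was found for 0 of the 33 genes, and for 13.4% of all genes in WD-fed and 8.22% in CD-fed mice.

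**Figure D2:**
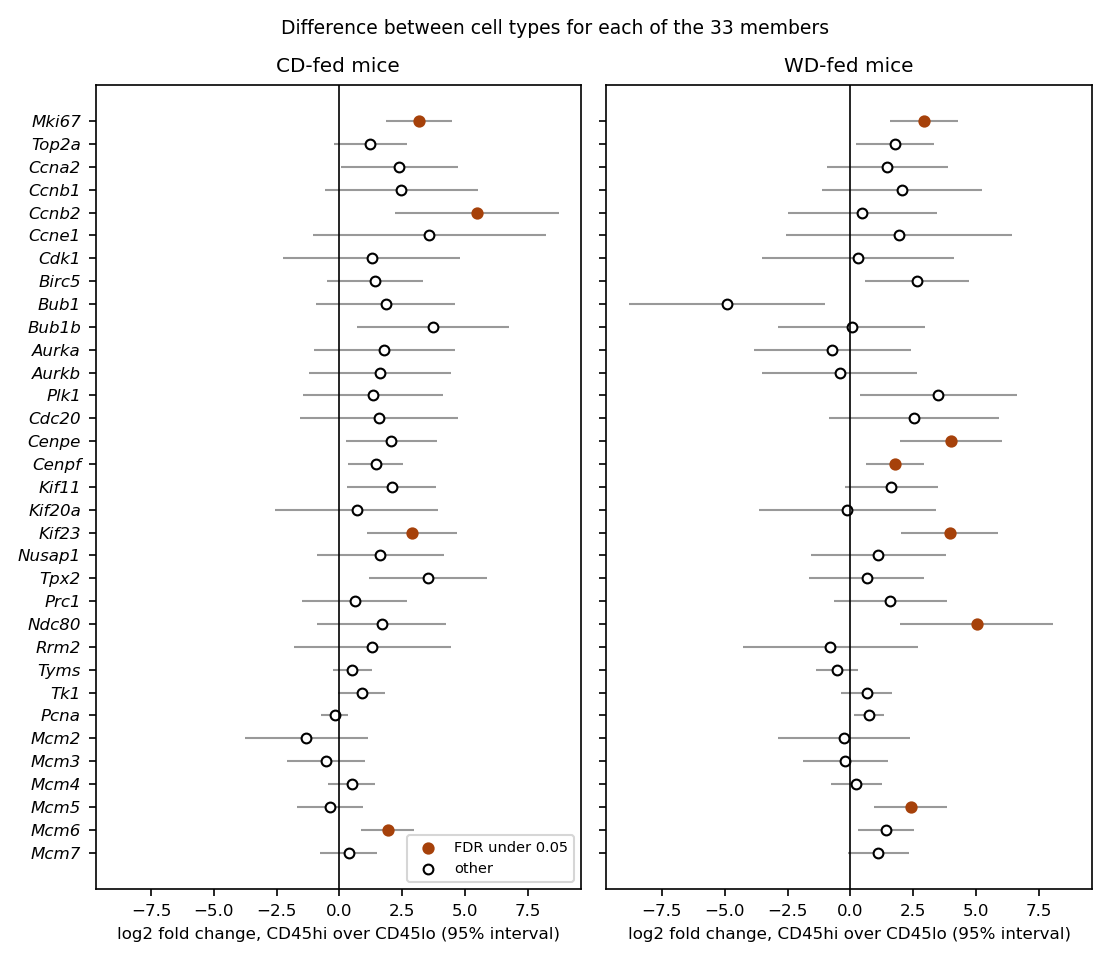
Log2 fold change of CD45hi over CD45lo cells for each of the 33 genes in CD-fed (left) and WD-fed (right) mice, with 95% intervals from edgeR. Filled points passed an FDR of 0.05 in the test for any difference, 4 genes in CD-fed and 6 in WD-fed mice, all of them to the right of 0.

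The kinetochore, spindle and cytokinesis group held most of the other calls in WD-fed mice, and 1 (Kif23) in CD-fed mice. Kif23, a kinesin of the central spindle that is needed to cut the cell in 2, was at 9.96, 17.6, 5.37 and 7.21 cpm in CD CD45hi and 0.588, 2.33, 0.492 and 1.99 cpm in CD CD45lo libraries. It was at 11.2, 29.7 and 8.36 cpm in WD CD45hi and 1.57, 1.93, 0.110 and 0.606 cpm in WD CD45lo libraries. As for Mki67, every CD45hi library was above every CD45lo library. The log2 fold change was 3.95 (SE 0.911) in WD-fed mice (glmTreat FDR = 0.0183) and 2.88 (SE 0.843) in CD-fed mice (glmQLFTest FDR = 0.0439). The WD call over 1.5-fold was lost without WD CD45hi library 2 (FDR = 0.0715) or WD CD45lo library 4 (0.0634), whereas the WD call for any difference held without each library in turn (largest FDR 0.0413). The CD call was lost in 9 of the 15 fits without 1 library (CD CD45hi 1 and 2, every CD CD45lo library, and WD CD45lo 1, 2 and 4), with a largest FDR of 0.132.

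Cenpe, a kinetochore motor that carries chromosomes to the spindle equator, was at 63.0, 16.9 and 21.2 cpm in WD CD45hi and 3.54, 1.71, 1.04 and 2.12 cpm in WD CD45lo libraries. The log2 fold change was 4.00 (SE 0.956, glmTreat FDR = 0.0226). It was 3.18 without WD CD45hi library 1, and the call over 1.5-fold was then lost (FDR = 0.0908), as it was without WD CD45lo library 2, 3 or 4 (FDR = 0.0656 to 0.0782). Without WD CD45hi library 1 the call for any difference was lost too (glmQLFTest FDR = 0.0512). With limma-voom, both calls of Cenpe in WD-fed mice were lost. In CD-fed mice, CD45hi libraries were at 12.9, 18.2, 34.3 and 0.386 cpm and CD45lo libraries at 1.71, 6.64, 2.46 and 4.88 cpm. Here CD CD45hi library 4, which stood apart in all genes, was below all CD45lo libraries, and the difference did not pass the test (log2 fold change 2.06, SE 0.856, glmQLFTest FDR = 0.174). Without this library and WD CD45hi library 1, Cenpe was among the 2 genes past the 1.5-fold test in CD-fed mice.

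In these edgeR tests, Ndc80 and Cenpf were called in WD-fed mice for any difference and not over 1.5-fold. Ndc80, which couples kinetochores to microtubules, was at 8.28, 24.7 and 1.53 cpm in WD CD45hi and 1.11, 0.148, 0.110 and 0 cpm in WD CD45lo libraries (log2 fold change 5.03, SE 1.45, FDR = 0.0367). It was at 10.6, 1.66, 0.264 and 6.95 cpm in CD CD45hi libraries, which overlapped with 1.59, 2.96, 0.184 and 1.31 cpm in CD CD45lo libraries. The Ndc80 call was lost without CD CD45lo 1 or 4, WD CD45hi 2, or WD CD45lo 2, 3 or 4 (FDR = 0.0508 to 0.114). Cenpf, a large kinetochore protein of late S phase and mitosis, was at 24, 48.7 and 17.3 cpm in WD CD45hi and 7.93, 9.57, 4.89 and 12.3 cpm in WD CD45lo libraries (log2 fold change 1.79, SE 0.546, FDR = 0.0492). That call, just inside the threshold, was lost in 11 of 15 fits without 1 library (largest FDR 0.178). These were the fits without CD CD45hi 1 or 2, any CD CD45lo, WD CD45hi 2 or any WD CD45lo library. The Cenpf call was also lost with limma-voom and without the cpm filter. In CD-fed mice Cenpf was at 27.4, 27, 7.04 and 34.8 cpm in CD45hi and 10.2, 12.1, 5.84 and 7.32 cpm in CD45lo libraries, with overlap. It was called higher there by DESeq2 (FDR = 0.0265) and without CD CD45hi 3 (glmQLFTest FDR = 0.0258).

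The remaining 5 genes of the group did not pass in these edgeR tests. Tpx2, which nucleates spindle microtubules, was at 4.84 to 40.2 cpm in CD CD45hi and 0.588 to 2.33 cpm in CD CD45lo libraries without overlap (log2 fold change 3.53, SE 1.11, FDR = 0.0615), and at 0.403 to 9.58 cpm against 0.519 to 5.99 cpm in WD-fed mice. In CD-fed mice Tpx2 was called by DESeq2 (FDR = 0.00392), limma-voom (0.0455), the newer edgeR 4 form of the same test (0.00386) and a fit of the compared groups alone (0.0293), and without CD CD45hi 3 or any WD CD45hi library (0.0266 to 0.0491). Kif11, the motor that pushes spindle poles apart, was likewise apart in CD-fed mice (17.2 to 40.0 against 1.97 to 14.3 cpm, FDR = 0.165), and was called there by limma-voom (0.0382) and the edgeR 4 form (0.0189). Kif20a, Nusap1 and Prc1 overlapped between the cell types on both diets. Expected counts of Kif11 were fractional in all 15 libraries and those of Cenpf and Prc1 in 14, so that part of their reads was shared with other genes or copies.

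**Figure D3:**
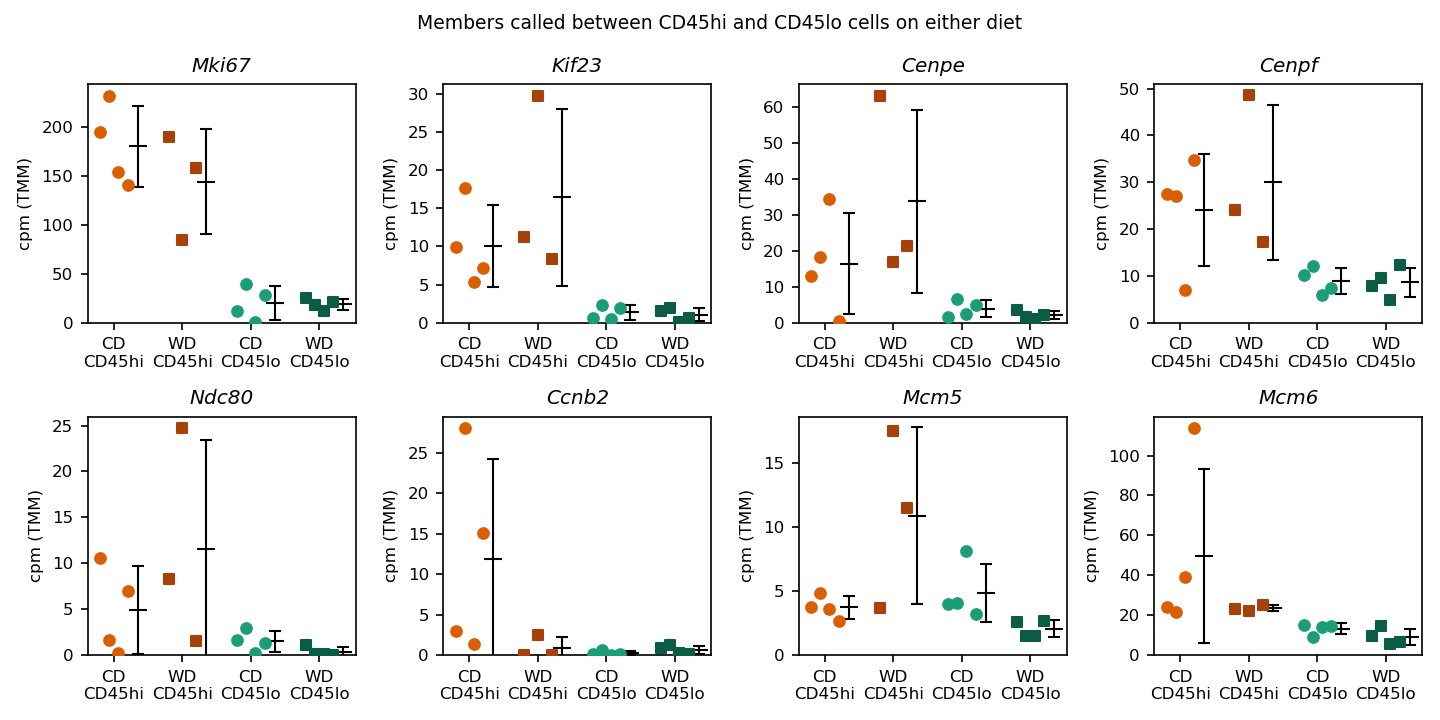
Levels in cpm of the 8 genes called between CD45hi and CD45lo cells on either diet, by library. Points are libraries and black bars are the mean and SD, shown from 0. Mki67 and Kif23 are apart on both diets, Cenpe, Cenpf, Ndc80 and Mcm5 in WD-fed mice, Ccnb2 in CD-fed mice, and Mcm6 on both diets with 1 CD CD45hi library at 114 cpm.

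Among the cyclins, Ccnb2, a partner of Cdk1, was at 3.01, 28.0, 1.41 and 15.1 cpm in CD CD45hi and 0.176, 0.623, 0.0615 and 0.170 cpm in CD CD45lo libraries. The libraries did not overlap, and the log2 fold change was 5.47 (SE 1.55, glmQLFTest FDR = 0.0370). In WD CD45hi libraries it was at 0, 2.48 and 0 cpm, and in WD CD45lo libraries at 0.852, 1.19, 0.220 and 0.152 cpm. The CD call was lost without CD CD45hi 2 or 4, any CD CD45lo library, or WD CD45lo 1 (FDR = 0.0504 to 0.114). Ccna2, the cyclin of S phase and early mitosis and the most abundant of the cyclins per transcript length (8.74 TPM over all libraries), was at 3.28, 28.6, 17.3 and 10.4 cpm in CD CD45hi and 3.88, 4.25, 0.0615 and 3.18 cpm in CD CD45lo libraries. CD CD45hi library 1 lay within the range of the CD45lo libraries, and the difference did not pass the test (log2 fold change 2.38, SE 1.11, FDR = 0.239). In WD-fed mice it was at 0.470, 20.3 and 3.14 cpm against 2.23, 2.3, 6.26 and 0.682 cpm. Ccne1, the cyclin of entry into S phase, had more than 3 counts in 3 of 15 libraries. Ccnb1 and Cdk1 overlapped between the cell types on both diets.

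No gene of the checkpoint and mitotic kinase group passed on either diet in these edgeR tests. In the test for any difference, 3 of 7 were at an unadjusted p under 0.05 in WD-fed and 1 of 7 in CD-fed mice. Of all 14967 genes tested, 3671 and 3006 were at that level. In CD45hi cells of WD-fed mice, DESeq2 called Birc5 higher (FDR = 0.0298) and Bub1 lower (0.0377), the edgeR 4 form called Birc5 (0.0383) and Plk1 (0.0302) higher, and Birc5 was called without WD CD45hi library 2 (0.0376). In CD-fed mice, Bub1b was called higher by DESeq2 (0.0177) and the edgeR 4 form (0.0253). The fold change was above 0 for all 7 in CD-fed mice and for 4 of 7 in WD-fed mice. Bub1, a spindle checkpoint kinase, had 108, 105, 40 and 7 counts in CD CD45hi libraries and 0, 0 and 1 count in WD CD45hi libraries. It had 6, 56, 5 and 34 counts in CD CD45lo and 35, 23, 2 and 0 counts in WD CD45lo libraries. The diets were thus apart in CD45hi cells and overlapped in CD45lo cells, and the difference in CD45hi cells had the lowest FDR of the 33 genes between diets, without passing the test (edgeR glmQLFTest, 0.109). Birc5, which encodes survivin of the chromosomal passenger complex, was at 25.9 cpm in WD CD45hi library 1 and 0.682 to 7.70 cpm in the other 14 libraries. Bub1b was at 0.524, 22.5, 57.7 and 1.48 cpm and Plk1 at 9.11, 0.497, 0.440 and 5.28 cpm in CD CD45hi libraries, so that different libraries carried the high values of these genes.

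Such uneven counts were frequent in CD45hi libraries. From at most 3 to at least 50 counts among libraries of 1 group were found for 7 of the 33 genes in CD CD45hi (Aurka, Aurkb, Cdc20, Cdk1, Ndc80, Prc1 and Rrm2) and 6 in WD CD45hi libraries (Bub1b, Ccnb1, Cdc20, Mcm2, Nusap1 and Plk1), or 21.2% and 18.2%. Over all genes tested the shares were 12.2% and 10.8%. In CD45lo libraries 4 genes in CD-fed and 1 in WD-fed mice did so (12.1% and 3.03%, against 1.79% and 2.08% of all genes). The median coefficient of variation of the 33 genes was 75.1% in CD CD45hi and 104% in WD CD45hi libraries, against 61.3% and 65.5% over all genes. It was 65.8% in CD CD45lo and 69.5% in WD CD45lo libraries, against 24.9% and 27.9%. The 33 genes were also at lower levels. Their median was 10 cpm in CD CD45hi and 10.3 cpm in WD CD45hi libraries, against 13.4 and 13.5 cpm over all genes. It was 2.84 cpm in CD CD45lo and 2.1 cpm in WD CD45lo libraries, against 11.7 cpm in both. Neither the uneven counts nor the variation were compared at like level.

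**Figure D4:**
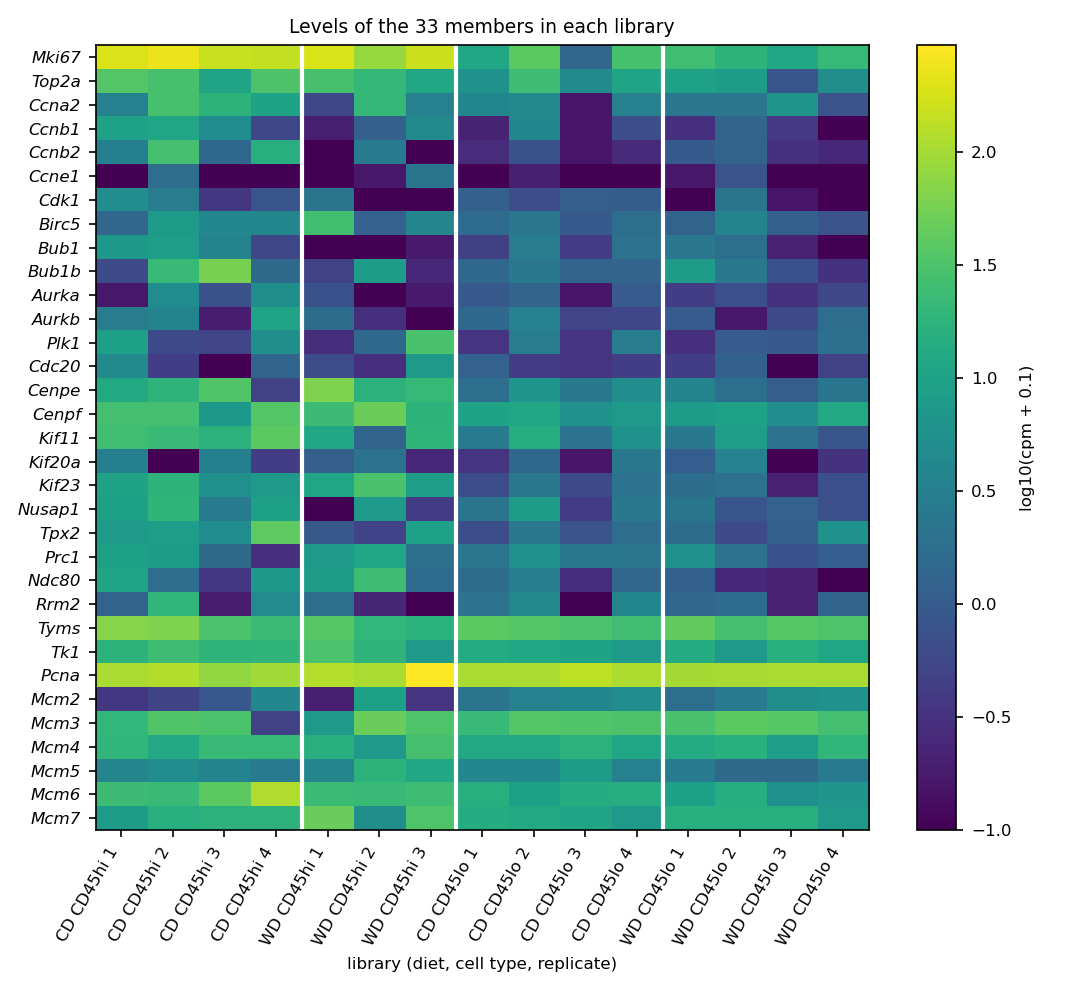
Level of each of the 33 genes (rows, by role) in each library (columns, grouped by diet and cell type), as log10 of cpm plus 0.1. Mki67 is bright in all CD45hi libraries and Pcna, Tyms, Tk1 and Mcm3 are bright in most CD45lo libraries too, while other mitotic genes are high in some CD45hi libraries and near 0 in others.

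Most of the abundant genes per transcript length were S phase genes. Pcna, the sliding clamp of the polymerases, had the highest mean of the 33 genes (194.6 TPM over all libraries), followed by Tk1 (33), Tyms (27.0), Mcm7 (23.7), Mcm3 (17.0), Mcm6 (12.8) and Mki67 (12.6 TPM). This order is that of means over all groups, and Mki67 was at 25.3 TPM in CD CD45hi and 3.83 TPM in CD CD45lo libraries. Pcna was at 109, 118, 80.6 and 98.0 cpm in CD CD45hi and 108, 108, 137 and 110 cpm in CD CD45lo libraries, and at 122, 106 and 297 cpm against 101, 103, 108 and 106 cpm in WD-fed mice. It did not pass in either (glmQLFTest FDR = 0.775 and 0.106), and in WD-fed mice 1 library carried the higher mean. For CD-fed mice the 95% interval of the log2 fold change was -0.73 to 0.36.

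Thymidylate synthase (Tyms) and thymidine kinase (Tk1) supply thymidine nucleotides. Tyms was at 69.1, 63.4, 31.1 and 22.9 cpm in CD CD45hi and 39.0, 35.6, 30.4 and 25.8 cpm in CD CD45lo libraries, and at 36.6, 19.8 and 16.6 cpm in WD CD45hi and 42.4, 28.3, 36.9 and 32.7 cpm in WD CD45lo libraries. Tk1 was at 17.3, 24.7, 17.9 and 18.7 cpm in CD CD45hi, above 13.4, 11.9, 10.3 and 7.15 cpm in CD CD45lo libraries, and at 30.3, 18.0 and 7.36 cpm in WD CD45hi against 13.9, 7.49, 14.9 and 10.9 cpm in WD CD45lo libraries. Neither passed on either diet, although Tk1 was apart in CD-fed mice (log2 fold change 0.88, SE 0.451, FDR = 0.297). Expected counts of Tyms and Tk1 were fractional in all libraries. Rrm2, a subunit of ribonucleotide reductase, was at 0 to 19.2 cpm and overlapped between all groups.

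Of the 6 helicase subunits, Mcm6 and Mcm5 were each called on 1 diet. Mcm6 was at 24.1, 21.8, 39.1 and 114 cpm in CD CD45hi and 14.8, 9.13, 14.1 and 14.5 cpm in CD CD45lo libraries (log2 fold change 1.92, SE 0.503, glmQLFTest FDR = 0.0245). Without CD CD45hi library 4, the one at 114 cpm, the log2 fold change was 1.11 and the call was lost (FDR = 0.131), as it was without any CD CD45lo library (FDR = 0.0618 to 0.0900). In WD-fed mice the libraries were apart as well (23.3, 22.3 and 25.0 against 9.38, 14.3, 5.38 and 6.44 cpm) without a call (log2 fold change 1.41, SE 0.525, FDR = 0.107).

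Mcm5 was at 3.67, 17.5 and 11.5 cpm in WD CD45hi and 2.62, 1.48, 1.48 and 2.65 cpm in WD CD45lo libraries (log2 fold change 2.40, SE 0.687, FDR = 0.0357). In CD-fed mice it was at 3.74, 4.89, 3.61 and 2.64 cpm against 4.00, 4.10, 8.17 and 3.18 cpm, with overlap (log2 fold change -0.39, SE 0.628). The WD call was lost without CD CD45lo 1, 2 or 4, WD CD45hi 2 or 3, or any WD CD45lo library (FDR = 0.0505 to 0.114). Mcm3 was at 20, 33.4, 31.2 and 0.386 cpm in CD CD45hi and 22.6, 35.3, 33.9 and 32.2 cpm in CD CD45lo libraries, and at 7.34, 47.1 and 32.8 cpm against 29.4, 39.5, 37.3 and 27.2 cpm in WD-fed mice. Its lowest values were those of the libraries that stood apart. Mcm7 was at 8.13, 15.4, 17.2 and 16.8 cpm in CD CD45hi, 13.9, 12.7, 10.6 and 7.38 cpm in CD CD45lo, 48.3, 5.17 and 32.3 cpm in WD CD45hi and 15.5, 15.1, 15 and 7.2 cpm in WD CD45lo libraries. Mcm2, Mcm3, Mcm4 and Mcm7 overlapped between the cell types on both diets.

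The diet was compared within each cell type. None of the 33 genes was called between WD- and CD-fed mice in CD45hi cells, where 0.254% of all genes were called, or in CD45lo cells, where 0% were (edgeR glmQLFTest). At an unadjusted p under 0.05 there were 5 of the 33 genes in CD45hi cells, against 2628 of all 14967 genes tested. Of the 5, Bub1, Ccnb2 and Tyms were lower and Pcna and Mcm5 higher in WD-fed mice. In CD45lo cells there were 0 of the 33, against 123 of all genes, and DESeq2 also called 0 there. Mki67 had a log2 fold change of -0.32 in CD45hi cells (95% interval -1.64 to 1.00) and -0.09 in CD45lo cells (-1.32 to 1.14), and a 2-fold fall lies within both intervals. The summed level of the 23 mitotic genes overlapped between diets in both cell types. Ccnb2 was lower in WD CD45hi cells by a log2 fold change of -3.81 (SE 1.61, FDR = 0.233), and was called when WD CD45hi library 2, the only one of that group with any count, was left out (FDR = 0.0371). DESeq2 called Bub1 lower in WD CD45hi cells (FDR = 0.003), and Tyms was called lower without both libraries that stood apart (log2 fold change -1.58, FDR = 0.0456).

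Whether the difference between the cell types itself differed between diets was tested as an interaction. None of the 33 genes passed, and 0.00668% of all genes did. At an unadjusted p under 0.05 there were 4 of the 33 genes, against 1515 of the 14967 genes tested, and DESeq2 called 0 of the 33. Mcm5 and Bub1 shared the lowest FDR (edgeR, 0.365) with opposite directions. The log2 fold change of Mcm5 between the cell types was higher by 2.79 (SE 0.928) in WD-fed mice, and that of Bub1 was lower, with 0 to 1 count in WD CD45hi libraries. For Mki67 the change differed by -0.23 (95% interval -2.03 to 1.57). Genes called on 1 diet alone were therefore not shown to differ between diets.

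Genes that set the pace of the cycle were taken from 6 other lists, with the test for any difference between the cell types. Of 9 G1 cyclins and kinases, 1 was higher and 1 lower in WD-fed mice and 2 were higher in CD-fed mice. The shares of all genes to set beside this and the other lists were 6.22% higher and 2.9% lower in WD-fed and 5.95% higher and 2.08% lower in CD-fed mice. Ccnd2, a D-type cyclin that starts the cycle, was at 25.0 to 57.6 cpm in CD45hi and 0.152 to 4.16 cpm in CD45lo libraries over both diets (log2 fold change 4.61 in WD- and 4.37 in CD-fed mice, FDR = 0.000418 and 0.000507). Ccnd1 was higher in CD-fed mice (0.94, FDR = 0.0202), and Ccnh, a subunit of the CDK-activating kinase, was lower in CD45hi cells of WD-fed mice (-2.21, FDR = 0.0170). The Ccnd1 call was lost without CD CD45hi 4 or CD CD45lo 3 (FDR up to 0.0626), and those of Ccnd2 and Ccnh held without each library in turn. The Ccnh call was lost in a fit of the compared groups alone (FDR = 0.0589).

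CDK inhibitors hold the cycle back. Of the 6 tested, Cdkn1a (p21) and Cdkn1b (p27) were higher in CD45hi cells on both diets and none was lower, and the log2 fold change was negative for 2 of 6 in WD-fed and 1 of 6 in CD-fed mice. Cdkn1a was at 32.8 to 119 cpm in CD45hi and 10.7 to 18.1 cpm in CD45lo libraries over both diets (log2 fold change 2.63 in CD- and 1.68 in WD-fed mice, FDR = 0.000216 and 0.0101). Cdkn1b was at 89.1 to 244 cpm against 49.5 to 83.5 cpm (1.17 and 1.35, FDR = 0.0303 and 0.0162). The 13 tested p53 target and growth arrest genes, which include Cdkn1a, held 4 higher and 0 lower calls on each diet, and these were Cdkn1a, Gadd45a, Gadd45b and Gas2l3. Gadd45b was at 4.65 to 56.9 cpm in CD45hi and 0.235 to 2.35 cpm in CD45lo libraries. The calls of Cdkn1a held without each library in turn. Those of Cdkn1b were lost without WD CD45hi 3 or WD CD45lo 1 or 3 in WD-fed mice (FDR up to 0.0954) and without CD CD45hi 3 or any CD CD45lo library in CD-fed mice (FDR up to 0.108). In WD-fed mice, Gadd45b was not called without WD CD45hi 1, Gadd45a without WD CD45hi 3 or WD CD45lo 1 or 3, and Gas2l3 without WD CD45hi 1 or WD CD45lo 1, 2 or 3 (FDR up to 0.168, 0.174 and 0.408 over all alternatives). In CD-fed mice, Gadd45b was not called without CD CD45lo 1 or 4 and Gadd45a without CD CD45lo 4 (FDR up to 0.0768 and 0.124). The CD call of Gas2l3 held without each library.

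Of the 21 genes of the Rb, E2F and DREAM or MuvB list, 2 were higher (E2f8 and Tfdp1) and 1 lower (E2f3, log2 fold change -1.59, FDR = 0.00456) in WD-fed mice, and 1 was higher in CD-fed mice (E2f2, 2.47, FDR = 0.0151). Of 40 genes for origin licensing and the replication fork, 0 were higher on either diet and 1 was lower in WD-fed mice (Uhrf1, with at most 0.0941 cpm in WD CD45hi and 0.933 to 4.45 cpm in WD CD45lo libraries). Of 46 other mitotic genes, 2 were higher (Hmmr and Cep55) and 1 lower (Ccnf, with no count in WD CD45hi libraries) in WD-fed mice, and 3 were higher in CD-fed mice (Smc4, Cdca5 and Cdca3). Their log2 fold change was above 0 for 31 of 46 in WD-fed (median 0.66) and 40 of 46 in CD-fed mice (median 1.5), and for 23 and 25 of the 40 origin and fork genes (medians 0.20 and 0.20). Most of these calls were lost without at least 1 library. In WD-fed mice, they were lost for E2f8 without WD CD45hi 1 or WD CD45lo 1, 2 or 3, for Tfdp1 without WD CD45hi 1 or 2 or any WD CD45lo library, and for Uhrf1 without WD CD45hi 2 or 3 or WD CD45lo 1 or 2 (FDR up to 0.123, 0.254 and 0.128 over all alternatives). They were lost for Hmmr without WD CD45hi 1 or WD CD45lo 3 and for Cep55 without WD CD45hi 2 or any WD CD45lo library (FDR up to 0.218 and 0.274), and held without each library for E2f3 and Ccnf. The Ccnf call was lost with the edgeR 4 form (FDR = 0.193). In CD-fed mice, they were lost for E2f2 without CD CD45hi 4 or CD CD45lo 1, 3 or 4, for Smc4 without CD CD45hi 4 or CD CD45lo 1, 2 or 3, for Cdca5 without CD CD45hi 4 or any CD CD45lo library, and for Cdca3 without CD CD45hi 1 or any CD CD45lo library (FDR up to 0.112, 0.0898, 0.406 and 0.0969). Between diets, edgeR called 0 genes of the 6 lists in either cell type. At an unadjusted p under 0.05 there were 1 to 8 genes a list in CD45hi and 0 in CD45lo cells. Of all 14967 genes tested, 2628 and 123 were at that level.

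Markers of other cells were also higher in some of the libraries with high mitotic sums. The summed level of 10 neutrophil precursor markers, among them Mpo, Elane and Ngp, was 611, 1540, 75.6 and 652 cpm in CD CD45hi, 148, 64.1 and 784 cpm in WD CD45hi, 208, 641, 56.7 and 333 cpm in CD CD45lo and 162, 124, 41.5 and 150 cpm in WD CD45lo libraries. In CD CD45lo libraries the mitotic sum had the same order (51.4, 144, 24.6 and 83.2 cpm), and Mki67 was lowest in library 3 and highest in library 2. In WD CD45lo libraries, library 1 was highest and library 3 lowest in both sums, and libraries 2 and 4 had opposite orders. In CD CD45hi libraries, library 2 was highest and library 3 lowest in both, and libraries 1 and 4 had opposite orders. In WD CD45hi libraries, library 2 was lowest in both, and library 3, highest in these markers, had a lower mitotic sum than library 1 (299 against 378 cpm). Between the cell types the sums did not go together throughout, since CD CD45hi library 3 had 75.6 cpm of these markers and a mitotic sum of 331 cpm, and CD CD45lo library 2 had 641 and 144 cpm. Of the 10 neutrophil precursor markers Ngp had the highest level, at 55.2 to 1110 cpm in CD CD45hi libraries, where Mpo reached 75.4 and Elane 14.2 cpm. Elane, Prtn3, Ctsg and Ms4a3, which mark the earliest stages, were at 0 in at least 1 library of each cell type. Elane reached 12.9 cpm in CD CD45lo libraries. CD CD45hi 2 and CD CD45lo 2 had the highest mitotic sum of their cell type. In them, 9 and 10 of the 10 markers were at 1 cpm or more, against 3 to 6 in the other libraries. Natural killer cell markers were at 4.70 to 137 cpm in CD45hi and 0 to 0.742 cpm in CD45lo libraries. The 8 T cell markers summed to 1.79 to 84.5 against 1.76 to 4.06 cpm, of which Cd4 was at 0.47 to 79.4 and 0.0758 to 1.65 cpm. The other 7 were at most at 4.13 cpm in any library, and Cd3e, whose protein marked the cells left out of the sort, at most at 0.257 cpm. Border macrophage markers were at 681 to 2500 against 56.5 to 215 cpm. The 3 neural progenitor markers summed to 5.52 to 79 cpm in WD CD45hi, 0.968 to 22.5 cpm in CD CD45hi and 0.983 to 6.38 cpm in CD45lo libraries. Dcx reached 73 cpm in WD CD45hi libraries and at most 0.594 cpm in the other groups. The 79 cpm was in WD CD45hi library 1, which had the highest mitotic sum of its group. In CD CD45hi libraries, the highest of these markers was in library 1 and the highest mitotic sum in library 2. The part of any of these cells in the level of the mitotic genes was not tested.

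**Figure D5:**
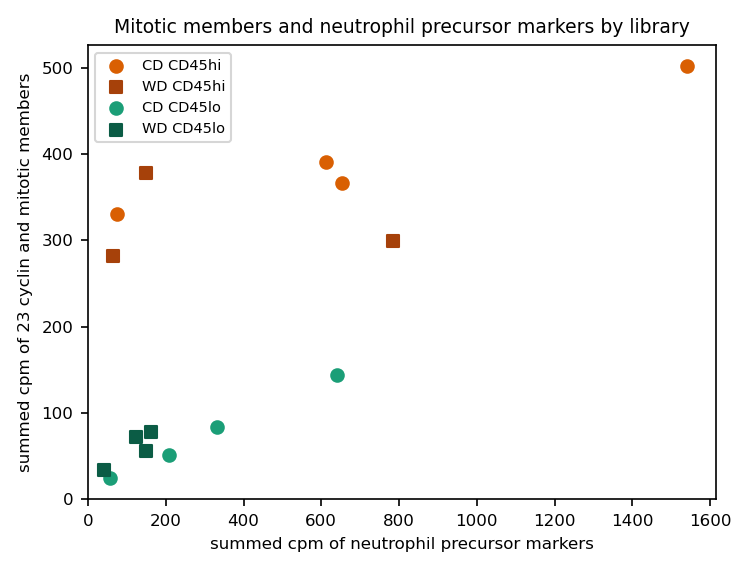
Summed cpm of the 23 cyclin and mitotic genes against summed cpm of 10 neutrophil precursor markers, 1 point per library. Of these markers Ngp had the highest level, and 3 to 10 were at 1 cpm or more in a library. CD45hi libraries lie at 282 to 502 cpm of mitotic genes over the whole range of the markers (64.1 to 1540 cpm), and CD45lo libraries lie below 144 cpm or at it.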

How the data were processed

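RNA-seq libraries (TruSeq v2, poly(A)-selected, paired-end) were trimmed with NGS QC Toolkit and quantified by the authors with RSEM 1.2.12, which ran Bowtie2, on mouse build mm10. The submitters' notes also name bcl2fastq 2.18.0.12. The gene annotation release and the platform of each library are not given in the sources used here. The deposited values are an expected count per gene and library, not normalized and divided among genes that share reads, and TPM. Expected counts were rounded, genes with at least 1 cpm in 2 of 15 libraries were kept (14967 of 38924), and TMM-normalized counts were fitted with edgeR 4.0.16 in R 4.3.3 (earlier form of the quasi-likelihood method, 4 groups, all libraries). Cell types were compared within diets with glmTreat at 1.5-fold and glmQLFTest, and diets and the interaction with glmQLFTest. A call is a Benjamini-Hochberg FDR under 0.05 over all genes. The computation was tested on simulated counts. TPM was used only to rank genes. The 33 genes, the other lists and the alternatives were chosen with earlier results of these data known. Values per library were given for the 8 genes with the highest mean TPM and the 8 with the lowest p in any test, and Cenpf was added after its values were seen. Pathway genes were named where called, with at most the 3 lowest p per list and comparison, except that all 4 called genes of the p53 list are named. Motif words were searched on both strands. Coordinates of genes are those of GENCODE M21, and those of the promoter stretches are from the RefSeq promoters. Groups and replicate numbers came from the sample titles. Same-numbered libraries of the cell types did not deviate together (correlations of -0.0217 to 0.0695), so that numbers were not taken as pairs. Alternatives were DESeq2 1.42.0, limma-voom (limma 3.58.1), other normalization and filters, fits of the compared groups, the edgeR 4 quasi-likelihood method, replicate blocks and leaving out libraries.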

Additional observations from a re-analysis of the deposited data

Results flagged for a closer look

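In groups of 4 libraries, 105 sets of values (each of the 33 genes and both sums in 3 groups) were searched for 1 library far from the other 3, and 13 were found, 11 high and 2 low. For normally distributed values, chance gives about 1 in 20 sets. Many of these sets hold low values near 0, for which that rate may not hold, so that 13 of 105 is not shown to be an excess. The WD CD45hi group has 3 libraries and was not searched. In CD CD45hi cells, library 4 was high for Tpx2 (40.2 cpm, others 4.84 to 8.53) and Mcm2 (4.12 cpm, others 0.262 to 0.792), and library 2 for Ccne1 (1.66 cpm, others 0). In CD CD45lo cells, library 2 was high for Ccnb1 (3.94 cpm, others 0.0615 to 0.567), Prc1 (5.45 cpm, others 2.18 to 2.46) and Ccne1 (0.104 cpm or 2 counts, others 0), and low for Mcm6 (9.13 cpm, others 14.1 to 14.8). Library 1 was high for Cdc20 (1.12 cpm, others 0.246 to 0.340) and library 3 for Pcna (137 cpm, others 108 to 110). In WD CD45lo cells, library 2 was high for Cdk1 (2.15 cpm, others 0 to 0.0549) and Ccne1 (0.668 cpm, others 0 to 0.0656), library 1 for Ndc80 (1.11 cpm, others 0 to 0.148), and library 4 low for Mcm7 (7.2 cpm, others 15 to 15.5). CD CD45lo library 2, with 4 of the 13, also had the highest sum of neutrophil precursor markers of the CD45lo libraries (641 cpm).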

How the results depend on the processing

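Each count of called genes was computed under alternatives with 1 choice changed. All calls listed kept their direction wherever they were computed. For WD-fed mice over 1.5-fold (3 genes), DESeq2 and the edgeR 4 quasi-likelihood method each called 5 and the replicate block 1. Leaving out each library gave 1 to 4. For CD-fed mice over 1.5-fold (1 gene), DESeq2 and a fit of the compared groups called 2, the edgeR 4 method 5, and the fit without CD CD45hi library 4 and WD CD45hi library 1, added after seeing the data, 2. Leaving out each library gave 1 to 2. For any difference in WD-fed mice (6 genes), DESeq2 called 10 (the 6, with Birc5, Mcm6 and Pcna higher and Bub1 lower), the compared groups alone 3, and the replicate block 2 with numbers from the titles or from the file names. Leaving out each library gave 3 to 7. In CD-fed mice (4 genes), DESeq2 and the edgeR 4 method called 7, and the replicate block 2 by title and 1 by file number. Leaving out each library gave 1 to 6, and 1 (Mki67) without any CD CD45lo library. Between diets in CD45hi cells (0 genes), DESeq2 called 1 (Bub1), the fit without both libraries standing apart 1 (Tyms), and leaving out each library 0 to 1. Counts in CD45lo cells and for the interaction were 0 under every alternative run. The interaction could not be fitted with the compared groups alone. In WD-fed mice the replicate blocks also lost Ccnh, Ccnf and Cdkn1a (FDR up to 0.117, 0.207 and 0.0805), which had held without each library. With limma-voom, the WD calls of Cenpe in both tests and of Cenpf were lost. It also lost Cep55, Gadd45a and Gas2l3 in WD-fed mice and Gadd45a and Cdca5 in CD-fed mice. Without the cpm filter, the calls of Cenpf, Mcm5 and Tfdp1 in WD-fed mice and of Kif23 in CD-fed mice were lost. Mki67 was called in 25 of 26 alternatives for WD over 1.5-fold and in 26 of 26 for its 3 other calls. With at least 1 cpm as the limit of detection, 26.8 of 33 genes were detected on average in CD CD45hi, 24 in CD CD45lo, 23 in WD CD45hi and 21 in WD CD45lo libraries. Replicate numbers share no stated origin, and what the losses under the block reflect was not tested. Causes of the other losses were not tested.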
